A study of Mus musculus with 12 samples.

Results

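The nuclear-encoded subunits of the mitochondrial respiratory chain were followed across the cell classes of the neonatal mouse liver, in anemic and control mice. The members were taken by gene symbol: Nduf followed by a, b, c, s or v and a digit, Uqcr, Cox4 to Cox8 and Atp5. Symbols with "-ps" were left out, which removed Ndufb1-ps. Of the 32285 genes measured, 80 were members. They comprised 35 genes of complex I, 8 of complex III, 20 of complex IV and 17 of complex V. All 80 were annotated as protein-coding and lay on 19 chromosomes, with 3 on the X chromosome and 0 on the mitochondrial genome. The symbol rule also took in Cox7a2l, which is an assembly factor of respiratory supercomplexes rather than a subunit, and Ndufa4 with its relative Ndufa4l2, which carry complex I names but belong with complex IV.

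Livers of C57BL6/J pups were dissociated and single-cell RNA was captured in droplets, with 1 library per mouse and 6 mice in each group. Anemic pups lost 20 µL of blood per g of body weight by facial vein phlebotomy every other day from day 2 to day 10 after birth. Control pups were handled alike and received a needle stick without blood loss, so anemia came with blood withdrawal and cannot be told apart from it. All livers were taken on day 11, and by the Xist and Y-linked counts the sexes were mixed, with Xist above the Y-linked genes in 4 control and 2 anemia libraries. After filtering, 206146 cells remained, of which 98075 were control and 108071 anemic, with 45751640 to 74344118 unique molecular identifiers (UMIs) per library. A UMI marks a single captured RNA molecule. Levels are given as CPM, the UMIs of a gene in every 1000000 UMIs of a class in a mouse. Any 2 libraries shared 51 to 121 cell barcodes.

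Cells were clustered without the members, and clusters were named "X-like" from marker genes. The clusters covered 12 classes with 2063 or more cells each, from 2063 erythroblast-like to 38538 B-like cells, and the small stellate-like and basophil-like clusters of 1509 and 588 cells. Basophil-like cells were not fitted and enter only the levels of the isoforms. Another 26 clusters stayed unnamed, most of them because more than 50% of their cells were called doublets. Anemia mice 2 and 3 stood apart from the other anemic mice, with 4382 and 2021 monocyte-like cells against 256 to 487, and a setting without both was added after seeing the data. RNA of other cells was found in every class. In the classes other than hepatocyte-like, the summed level of 10 hepatocyte genes in anemia was 0.360 to 0.701 times that in controls, and in the classes that are not erythroid the summed level of 4 globin genes was 2.19 to 4.69 times. In each fitted class other than hepatocyte-like, anemia mice 2 and 3 had the lowest levels of the hepatocyte genes. In macrophage-like cells they had 759 and 1085 CPM, against 2632 to 3783 CPM in the other anemic mice and 3143 to 3881 CPM in controls. Except where a setting without RNA of other cells is named, the part of such RNA in the results was not tested.

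The respiratory chain carries electrons from NADH and succinate to oxygen. Complexes I, III and IV pump protons across the inner mitochondrial membrane, and complex V, the ATP synthase, uses the gradient to make ATP. A few catalytic subunits are encoded by mitochondrial DNA, and the other subunits are encoded in the nucleus. Several complex IV subunits exist as alternative isoforms: Cox4i2 for Cox4i1, Cox6a2 for Cox6a1, Cox6b2 for Cox6b1, Cox7a1 for Cox7a2 and Cox8b for Cox8a, while Ndufa4l2 is related to Ndufa4. In oxygen shortage, hypoxia-inducible factor is known to induce Cox4i2 and Ndufa4l2.

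The promoters of an ordinary and an alternative isoform of the same subunit are shown because their transcripts were distributed very differently between cell classes. The letters are RefSeq sequence of GRCm38.p6, 250 bases before the start of each gene, on the minus strand and written 5′ to 3′. The first is that of Cox6b1, at chr7:30626115-30626364, and the second that of Cox6b2, at chr7:4753095-4753344. Capitals mark the match to the motif bound by GABP, a known activator of respiratory genes, and it is the only match in either window to the 4 motifs searched on both strands. The GENCODE annotation starts Cox6b1 at 30626151, inside its window, so by that start the match lies within the gene.
Cox6b1: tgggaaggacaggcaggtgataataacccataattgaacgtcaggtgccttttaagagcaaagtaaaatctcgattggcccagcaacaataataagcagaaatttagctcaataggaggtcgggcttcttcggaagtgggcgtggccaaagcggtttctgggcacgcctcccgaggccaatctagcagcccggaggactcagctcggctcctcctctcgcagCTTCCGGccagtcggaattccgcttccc
Cox6b2: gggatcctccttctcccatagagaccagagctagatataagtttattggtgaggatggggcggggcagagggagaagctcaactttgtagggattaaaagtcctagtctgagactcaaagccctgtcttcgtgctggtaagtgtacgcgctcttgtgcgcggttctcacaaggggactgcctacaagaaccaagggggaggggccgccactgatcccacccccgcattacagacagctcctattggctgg
Of the 80 members, 64 had such a promoter sequence. The GABP motif CCGGAAG lay in 17.2% of them (11 genes), against 7.83% of all 27025 promoters. The NRF1 motif GCGCATG lay in 14.1% (9 genes), against 3.68% of all. The hypoxia response core ACGTG was found in 18.8% of members and 18.5% of all promoters. The erythroid GATA motif AGATAA was found in 9.38% of members and 11.4% of all. A match is a stretch of letters and does not show that the factor was bound.

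The summed level of the 80 members differed between cell classes by far more than between mice. The highest was in hepatocyte-like cells, and the next in erythroblast-like cells, with 20237 ± 1713 CPM in controls and 21199 ± 1915 CPM in anemia (SD, n = 6). Of the erythroblast-like cells, 30.1% were called doublets and kept. Macrophage-like cells held 16723 ± 1196 CPM in controls and B-like cells 15889 ± 1153 CPM, which did not differ beyond their spread. Neutrophil-like and endothelial-like cells were lower, at 12141 and 11639 CPM. The lowest level was in reticulocyte-like cells, at 2603 ± 535 CPM in controls, where 4 globin genes alone took 842004 CPM. Levels here are molecules counted at the ends of transcripts and need no correction for gene length. Over all classes, the member with the highest mean level was Ndufa7 in complex I (279 CPM), Uqcrh in complex III (412 CPM), Cox4i1 in complex IV (623 CPM) and Atp5g2 in complex V (534 CPM).

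**Figure D1:**
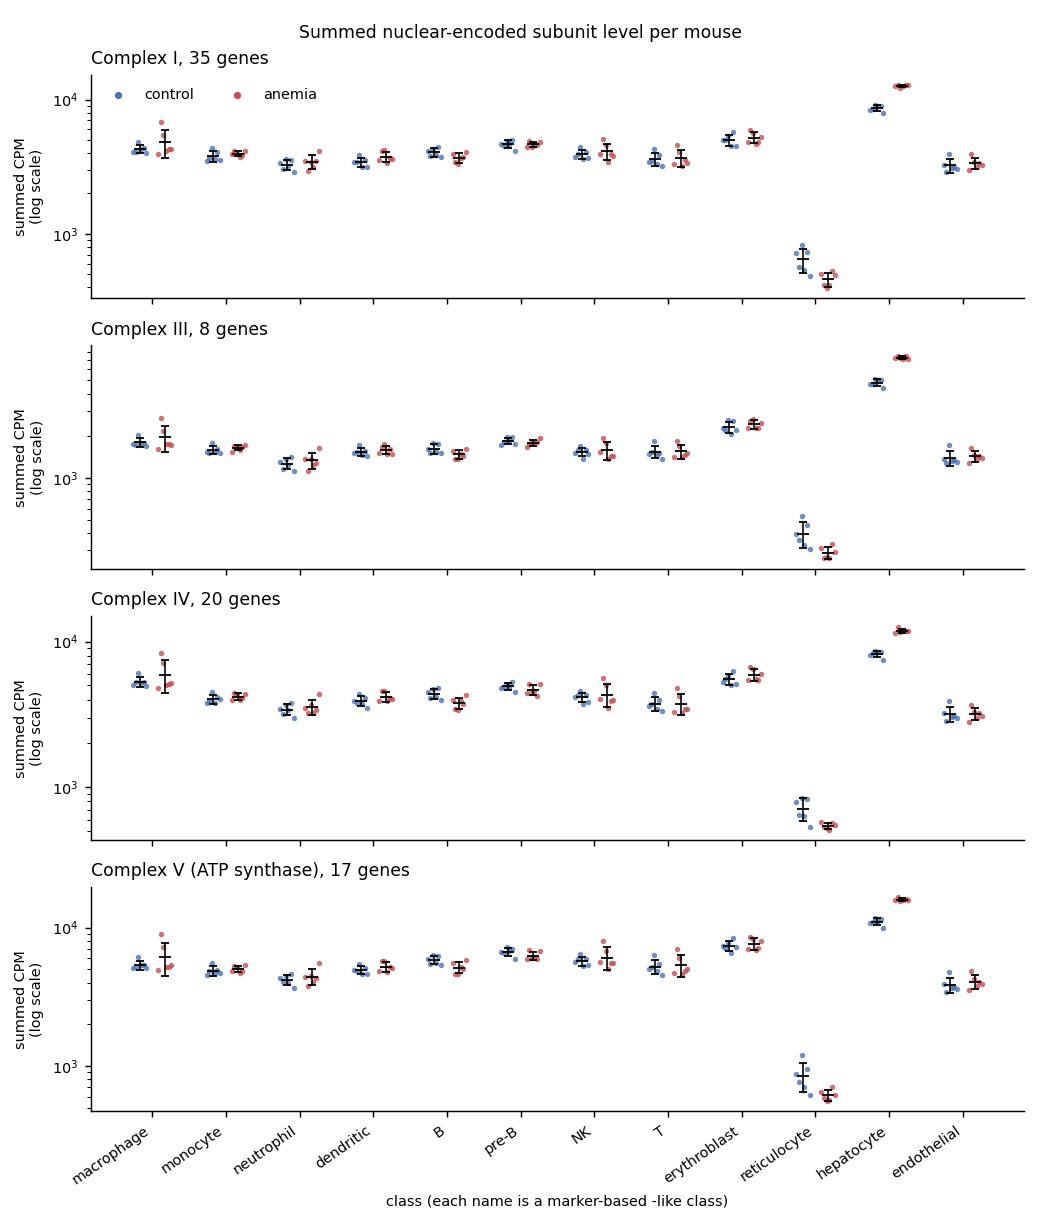
Summed level of the members of each complex (CPM on a log scale, 1 point per mouse, bars for the mean ± SD) by cell class in control and anemic mice. Hepatocyte-like cells of anemic mice lie above every control in each complex, and the other classes overlap in part or whole.

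In hepatocyte-like cells the respiratory subunits were higher in anemia as a group. The summed level had a lowest, median and highest value of 29798, 33104 and 34492 CPM in controls and of 46546, 47563 and 49661 CPM in anemic mice. Every anemic mouse lay above every control, and the ratio of the means was 1.46. The 4 complexes moved by almost the same factor: the ratios were 1.46 for complex I, 1.51 for complex III, 1.44 for complex IV and 1.45 for complex V. In edgeR's quasi-likelihood test with Benjamini-Hochberg adjustment, 74 of the 75 members tested rose and 0 fell, beside 22.8% of all genes called higher and 24.4% called lower. The median log2 fold change was 0.71 over the members and -0.05 over all 11274 genes.

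All 35 members of complex I rose in hepatocyte-like cells. The smallest change was that of Ndufs1, an iron-sulfur subunit, with a log2 fold change of 0.36. The largest were those of Ndufs7, an iron-sulfur subunit next to the quinone site, and Ndufc1, an accessory subunit, at 0.92 each. Ndufa11, an accessory membrane subunit, rose by 0.83, and Ndufv3, a small subunit of the NADH-binding module, by 0.78. Ndufa7 rose by 0.59 and Ndufb11, encoded on the X chromosome, by 0.61 (both log2). Ndufs1, Ndufa7 and Ndufb11 lost the call when cluster 21, described after the members, was left out.

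All 8 members of complex III rose as well. Uqcrq, a small subunit of the cytochrome bc1 complex, had 1135, 1186 and 1259 CPM in controls and 1962, 2066 and 2176 CPM in anemia (lowest, median and highest). The groups were far apart, with a log2 fold change of 0.95 (edgeR, adjusted p = 8.98e-08). Uqcrfs1, the Rieske iron-sulfur protein, rose by 0.88. Uqcrh, the hinge protein that contacts cytochrome c1, rose by 0.54, and Uqcrc2, a core protein, by 0.28 with cluster 21 included and not without it. With library totals Uqcrc2 was at 0.06 (edgeR, adjusted p = 0.63).

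In complex IV, 14 of 15 tested members rose. Cox4i1, the ordinary isoform of subunit 4, had 1051, 1136 and 1186 CPM in controls and 1500, 1610 and 1736 CPM in anemia, with a log2 fold change of 0.68 (edgeR, adjusted p = 2.99e-06). Its groups did not overlap. Cox7b rose by 0.94, Cox8a by 0.80, Cox6b1 by 0.75, Cox7a2 by 0.66, Cox7a2l by 0.55 and Cox6a1 by 0.38 on the log2 scale. The exception was Cox6b2, at 2.09 and 2.30 CPM (log2 fold change 0.52, edgeR adjusted p = 0.271). In complex V, whose members make up the ATP synthase, all 17 rose. The range ran from Atp5a1, the alpha subunit of the F1 head, at 0.21, to Atp5g1, a gene for the membrane c ring, at 0.94. Atp5f1, of the peripheral stalk, rose by 0.62, Atp5g2, another c-ring gene, by 0.68, and Atp5l, the g subunit, by 0.72. Cox6a1, Atp5a1 and Atp5f1 were not called without cluster 21. The call of Atp5a1 was also lost without any of control mice 2, 4, 5 and 6 or anemia mice 4, 5 and 6, with adjusted p-values of 0.0528 to 0.0688 in edgeR, and with the replicate block (edgeR, adjusted p = 0.0835).

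The largest change of any member belonged to Ndufa4l2, on chromosome 10 from 127514967 to 127517154 (GRCm38). In hepatocyte-like cells it had 1.12, 2.78 and 3.47 CPM in controls and 26.6, 35.4 and 59.6 CPM in anemia, from 41 and 701 UMIs in all. The groups did not overlap, and the log2 fold change was 4.12 with an SE of 0.25 (edgeR, adjusted p = 2.59e-09), or 17.4-fold. At least 1 UMI was seen in 0.471% of 7220 control and 4.89% of 10360 anemic cells, at median depths of 1298.5 and 1142 UMIs per cell. In neutrophil-like cells, at 1537 and 1732.5 UMIs, the shares were 0.0367% and 0.0978%. Cox7a1, the muscle isoform of subunit 7a, on chromosome 7 from 30184144 to 30186078, had 1.25, 2.52 and 6.50 CPM in controls and 11.6, 15.96 and 18.7 CPM in anemia. Its log2 fold change was 2.44 with an SE of 0.28 (edgeR, adjusted p = 2.91e-06), again without overlap. The ordinary Ndufa4, located at chromosome 6, 11900292 to 11907497 (GRCm38), rose by 0.32 on the log2 scale (edgeR, adjusted p = 0.00528). It had 1304, 1544 and 1635 CPM in controls and 1535, 1725 and 1833 CPM in anemia, with 4 of 6 anemic mice above every control. Like Uqcrc2, it turned in direction without cluster 21, to -0.12.

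**Figure D2:**
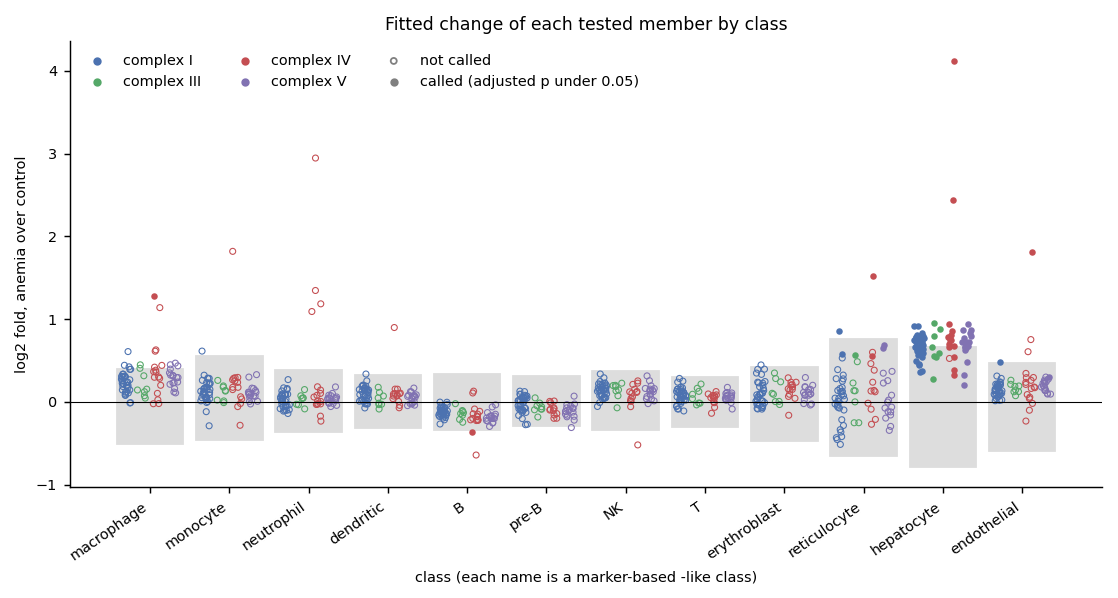
Fitted log2 fold change of anemic over control mice for each tested member, by cell class, with a color for each complex, filled points for members called (edgeR adjusted p under 0.05) and a gray box for the central 80% of all tested genes. In hepatocyte-like cells 74 points are filled, with Ndufa4l2 at 4.12, and the other classes hold 0 to 7 filled points each.

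The make-up of the hepatocyte-like class differed between the groups. It held 5 clusters, and cluster 21 took 28.3 ± 3.29% of the class in control mice and 12.4 ± 2.92% in anemic mice, below every control in 6 of 6. Its cells were deep, with a median of 3323 UMIs, and it gave 52.2% of the control UMIs and 20.99% of the anemic UMIs of the class. Its median mitochondrial share was 16.5%, 27.1% of its cells were called doublets, and its members were low, at 19651 CPM in controls and 21530 CPM in anemia. Clusters 16 and 37, led by the metabolic genes Uox, Fabp1, Gnmt and Fbp1, made up 13.2% and 6.0% of the control cells and 26.8% and 11.9% of the anemic cells. Their members stood at 62592 and 65002 CPM in cluster 16 and at 68778 and 73089 CPM in cluster 37. Clusters 10 and 16 were shallow, with medians of 846.5 and 726 UMIs per cell, against a floor of 500. Clusters 28 and 37 had medians of 2674 and 1932.5 UMIs.

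Leaving out cluster 21 lowered the difference but kept its direction. The summed level was then 46776 ± 1793 CPM in controls and 54654 ± 995 CPM in anemia, a ratio of 1.17, with all 6 anemic mice above all controls. The make-up still differed in this setting. Clusters 16 and 37, with the highest member levels, gave 4.29% and 5.94% of the control UMIs of the whole class. Of the anemic UMIs they gave 13.3% and 16.6%. The part of this shift in the ratio and in the calls below was not tested. In edgeR, 46 of 75 members rose and 0 fell, beside 6.92% of all 9764 genes called higher and 5.91% lower. The median was 0.30 over the members and -0.04 over all genes. Ndufa4l2 was then at 3.65, Cox7a1 at 1.80, and Uqcrq at 0.57 (all log2), each still called. Of the members named above, 8 were no longer called, and 2 of them turned in direction. Uqcrc2 was at -0.03 (edgeR, adjusted p = 0.89) instead of 0.28 and Ndufa4 at -0.12 (edgeR, adjusted p = 0.38) instead of 0.32. Ndufs1, Atp5a1, Ndufa7 and Ndufb11 were at 0.03, 0.03, 0.07 and 0.12, with edgeR adjusted p-values of 0.88, 0.87, 0.67 and 0.41. Atp5f1 was at 0.19 (edgeR, adjusted p = 0.0997) and Cox6a1 at 0.25 (edgeR, adjusted p = 0.0846).

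Within single clusters fewer members passed the test. In cluster 10, 23 of 74 rose (4.3% of all genes were called higher), with a summed level of 41606 CPM in controls and 46826 CPM in anemia, a ratio of 1.13. In cluster 28, 21 of 74 rose (4.43% of all genes), with a ratio of 1.09. In cluster 16, 8 of 74 rose (3.71% of all genes), in cluster 37, 1 of 74 (2.68%), and in cluster 21, 0 of 72 (2.96%), where 15 were higher at an unadjusted p under 0.05 in edgeR, the only tool run on clusters. The ratios of the summed level were 1.04, 1.06 and 1.10 in clusters 16, 37 and 21, and in cluster 16, 0 anemic mice lay above every control. No member fell in any of these 5 clusters, beside 3.22%, 1.93%, 1.89%, 2.88% and 1.93% of all genes called lower in clusters 10, 16, 21, 28 and 37, and the median log2 fold change of the members lay between 0.15 and 0.30. Ndufa4l2 rose in clusters 10, 16 and 28 by 4.58, 4.06 and 4.28 and was at 1.44 in cluster 37 (edgeR, adjusted p = 0.072). Too few of its UMIs fell in cluster 21 for a test. Ndufa4 lay below 0 in 4 of the clusters, at -0.07, -0.19, -0.15 and -0.18 in clusters 10, 16, 28 and 37, and at 0.03 in cluster 21.

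**Figure D3:**
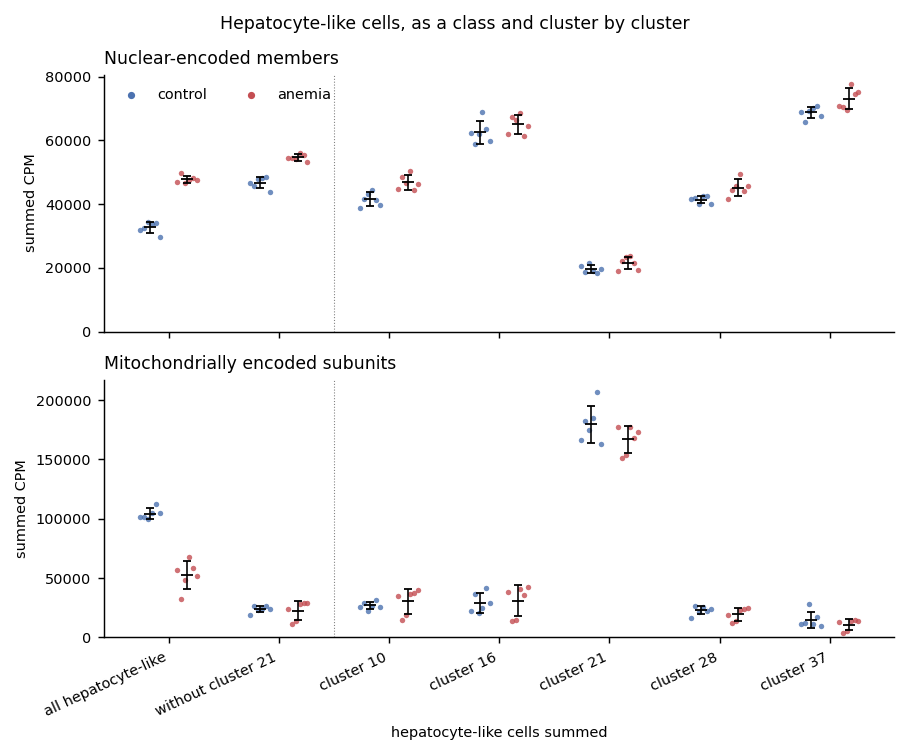
Summed level of the members and of the mitochondrially encoded subunits (CPM, 1 point per mouse, bars for the mean ± SD) in the hepatocyte-like class, the class without cluster 21 and each of its clusters. The members differ most in the whole class (ratio 1.46), less without cluster 21 (ratio 1.17) and least within the single clusters (ratios 1.04 to 1.13).

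The mitochondrially encoded subunits of the same complexes went the other way in the whole class. Their summed level was 104202 ± 4573 CPM in controls and 52502 ± 11768 CPM in anemia, a ratio of 0.504 (0.562 without anemia mice 2 and 3), and 13 of 13 genes were called lower. mt-Co1, of complex IV, fell by 0.95 and mt-Cytb, of complex III, by 0.52 on the log2 scale. Without cluster 21, which held 179599 CPM of them in controls, the levels were 23766 and 22391 CPM, a ratio of 0.942 that rested on anemia mice 2 and 3, at 11150 and 13424 CPM and below every control. The other 4 anemic mice had 24043 to 28974 CPM, 3 of them above every control, with a ratio of 1.15 without mice 2 and 3. Over all 12 mice edgeR, the only tool run without cluster 21, called 0 of 13 and gave 0 with an unadjusted p under 0.05. In the other classes the ratio lay between 0.820, in erythroblast-like cells, and 1.06.

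The other respiratory genes of the pathway largely rose with the members in hepatocyte-like cells. Of 4 complex II genes, 3 rose, with Sdhb, the iron-sulfur subunit of succinate dehydrogenase, at 0.89. All 6 carriers and subunits outside the name rule rose, with Cycs, cytochrome c, at 1.42, Ndufab1 at 0.88 and Cyc1 at 0.74. Of the assembly factors, 9 of 15 for complex I, 3 of 6 for complex III, 16 of 21 for complex IV and 3 of 4 for ATP synthase rose. The only falls were 2 for complex III, with Ttc19 at -0.56 among them. Of 16 genes of the tricarboxylic acid cycle and pyruvate dehydrogenase, 10 rose, with fumarase Fh1 at 1.17. The regulators of mitochondrial biogenesis were split, with 2 of 12 higher and 2 lower, and among these Tfb1m was at 0.42, Nrf1 at -0.48 and Pprc1 at -1.20. Of 9 hypoxia-linked mitochondrial genes, 8 rose, with the mitophagy receptors Bnip3 at 2.05 and Bnip3l at 1.23 and the respiratory supercomplex factor Higd1a at 0.98. These values are those of the whole class, cluster 21 included, in which 22.8% of all genes were called higher and 24.4% lower. The 2 of 12 regulators called in each direction are below both shares.

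In endothelial-like cells, 3 of 78 members rose and 0 fell in the class as a whole, beside 7.84% of all genes called higher and 10.9% lower. The median was 0.18 over the members and 0.01 over all genes. Ndufa4l2 was low, with 0.186, 0.411 and 0.797 CPM in controls and 0.547, 1.47 and 2.71 CPM in anemia, where 5 of 6 mice exceeded the highest control. Its log2 fold change was 1.81 with an SE of 0.36 (edgeR, adjusted p = 0.00345), from 34 and 104 UMIs. Ndufv3 had 89.3, 101 and 127 CPM in controls and 121, 132 and 150 CPM in anemia, with a log2 fold change of 0.48 (edgeR, adjusted p = 0.00259). Atp5f1 had 149, 157 and 195 CPM in controls and 153, 176 and 220 CPM in anemia, overlapping, with a log2 fold change of 0.30 (edgeR, adjusted p = 0.0484). The count rested on control mouse 3, whose summed level was 14386 CPM against 10489 to 11755 CPM in the other controls, and 32 members were called higher without it, when 11% of all genes were called higher. Without anemia mice 2 and 3, the median of the members was 0.09 and Atp5f1 lost the call (edgeR, adjusted p = 0.18). Over 29 alternative settings, single clusters included, Atp5f1 lost the call in 16 and Ndufv3 in 2. Ndufa4l2 kept it in all 23 settings where it was tested. The clusters of the class shifted too, with cluster 4 at 47.3% of control and 23.0% of anemic cells and cluster 5 at 28.2% and 44.7%. Within endothelial clusters 4, 5, 27, 31 and 36, 8, 10, 0, 17 and 1 members rose, beside 6.85%, 8.97%, 1.04%, 8.53% and 4.11% of all genes, and in cluster 27, 5 were higher at an unadjusted p under 0.05.

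In macrophage-like cells, 1 of 77 members rose and 0 fell, beside 1.7% of all genes called higher and 1.49% lower. With all mice, 73 members lay above 0, with a median log2 fold change of 0.27 against 0.03 over all genes, and this rested on anemia mice 2 and 3. Their summed levels were 26933 and 22043 CPM, against 15260 to 16542 CPM in the other anemic mice and 15713 to 19028 CPM in controls. Without both mice, 35 of 76 members lay above 0, the median was -0.01, and 1 was called, beside 2.29% of all genes called higher. In either setting the gene called was Cox4i2, on chromosome 2 from 152754173 to 152765037 (GRCm38), with 1.80, 2.25 and 4.20 CPM in controls and 3.78, 4.82 and 11.1 CPM in anemia. Its log2 fold change was 1.28 with an SE of 0.29 (edgeR, adjusted p = 0.0305), and the level in 5 of 6 anemic mice exceeded the highest control. Without anemia mice 2 and 3 it was at 0.93 (edgeR, adjusted p = 0.0444). The clusters within the class shifted, with cluster 2 at 62.7% of control and 34.5% of anemic cells and cluster 20 at 4.75% and 28.8%. Within clusters 2, 18, 20 and 25 on their own, edgeR, the only tool run there, called 0 members higher, beside 1.7%, 0.47%, 0.0269% and 0.612% of all genes, and 12, 11, 5 and 22 were higher at an unadjusted p under 0.05. Cox4i2 was at 0.86 (edgeR, adjusted p = 0.0531) in cluster 2 and at 2.25 (edgeR, adjusted p = 0.41) in cluster 20. The call was lost without any of control mice 1, 2, 3, 4 and 5, when 0 members were called, and 2 were called without anemia mouse 1, when 2.2% of all genes were called higher. The summed level of 10 markers of stellate-like cells, a class that carries Cox4i2, was 139 CPM in controls and 119 CPM in anemia. The part of RNA from stellate-like or other cells in the Cox4i2 level was not tested.

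The stellate-like cluster, which has the perivascular vitamin A-storing cells' markers, had the highest level of Cox4i2 and Ndufa4l2 of any named class. It held 1079 control and 430 anemic cells, and 32.5% of its cells were called doublets, whose part in these values was not tested. Anemia mouse 2 had 29 cells, and anemia mouse 3, with 6 cells, was left out. Cox4i2 was at 24.7 ± 1.73 CPM in controls and 82.6 ± 16.2 CPM in the other 5 anemic mice, and Ndufa4l2 was at 56.8 ± 15.4 CPM and 111 ± 32.2 CPM. These 5 lay above every control for both genes, for Ndufa4l2 narrowly, with the lowest at 80.8 CPM against 80.1 CPM in the highest control. In the fit over 11 mice, Cox4i2 rose by 1.83 with an SE of 0.20 (edgeR, adjusted p = 3.25e-06) and Ndufa4l2 by 1.16 with an SE of 0.21 (edgeR, adjusted p = 0.00168). These were the 2 members of 74 that were called, beside 1.77% of all genes higher and 0.604% lower. Ordinary Cox4i1 was at -0.07 and Ndufa4 at -0.38 on the log2 scale there, neither past the threshold. In hepatocyte-like cells the stellate markers were at 129 CPM in controls and 63 CPM in anemia, below every control in 6 of 6 mice. The part of RNA from stellate-like or other cells in the Ndufa4l2 level there was not tested.

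In B-like cells the members lay on the lower side. The summed level was 15889 ± 1153 CPM in controls and 14081 ± 1206 CPM in anemia, a ratio of 0.886, with 4 of 6 anemic mice below every control. Of 76 members, 74 had a log2 fold change below 0, with a median of -0.15 against 0.01 over all genes. Only Ndufa4 passed the test and 0 rose, beside 1.44% of all genes called lower and 1.29% higher, and 34 had an unadjusted p under 0.05. Ndufa4 had 521, 576 and 652 CPM in controls and 401, 435 and 548 CPM in anemia, with 5 of 6 anemic mice below every control and a log2 fold change of -0.36 with an SE of 0.08 (edgeR, adjusted p = 0.0301). The make-up of the class differed between the groups, with cluster 6 at 16.6% of control and 29.8% of anemic cells and cluster 7 giving 47.6% and 39.5% of the UMIs. Within clusters 0, 6, 7, 9 and 47 the median of the members lay between -0.07 and -0.10, nearer 0 than in the whole class. Ndufa4 fell in cluster 0 by 0.37 (edgeR, adjusted p = 0.00754), the only member called lower there or in the other 4 clusters, beside 1.9%, 0.788%, 0.688%, 0.891% and 0.0553% of all genes called lower. It was at -0.32, -0.20, -0.28 and -0.19 in clusters 6, 7, 9 and 47. At an unadjusted p under 0.05, 11, 7, 11, 7 and 3 members were lower in the 5 clusters. Without anemia mouse 6, 16 members were called lower, beside 4.13% of all genes. Without any of control mice 1, 3 and 5 or anemia mice 2, 3 and 5, without anemia mice 2 and 3 together, with the Y-linked level as a covariate for sex, and with the replicate block (Ndufa4 at edgeR adjusted p = 0.056), 0 were called.

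Reticulocyte-like cells, nearly filled by globin RNA, gave opposite answers under different scaling and under different filters on low counts. With TMM scaling, 7 of 73 members rose and 0 fell, beside 6.82% of all genes called higher and 2.01% lower, with a median of 0.07. With library totals instead, 1 was called higher and 20 lower, beside 1.97% of all genes called higher and 15% lower, the median being -0.499 for the members and -0.51 for all genes. The median of all genes was -0.02 with TMM scaling, so the scaling moved all genes, and the calls with TMM are changes relative to the other genes. The largest change was that of Cox6b2, at 1.53, 3.94 and 7.01 CPM in controls and 5.23, 7.90 and 10.4 CPM in anemia, overlapping, with a log2 fold change of 1.52 (edgeR, adjusted p = 0.00472). Ndufa11 was at 0.86, Atp5f1 at 0.69, Atp5l at 0.65, Ndufb11 at 0.58, and Uqcrh and Cox8a at 0.56 each with TMM scaling. Uqcrh and Cox8a were at -0.04 and -0.03 with library totals. Without control mice 1, 4, 5 or 6 the count with TMM scaling was 2, 4, 2 and 4, and without anemia mice 2, 3 or 4 it was 3, 3 and 2, while 4.86% to 5.83% of all genes were called higher. Without anemia mice 2 and 3 together it was 2, beside 5.36% of all genes.

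The calls in reticulocyte-like cells also came with a shift between clusters. The share of cluster 3 was 20.2% in controls and 38.7% in anemia, and that of cluster 11 was 35.5% and 15.6%. Within clusters 1, 3, 11, 44 and 52 on their own, 1, 0, 0, 1 and 0 members rose, beside 5.07%, 5.96%, 3.91%, 3.25% and 3.52% of all genes called higher by edgeR, the only tool run there, over 12 mice, or over 11 in clusters 44 and 52, where a mouse had under 10 cells. At an unadjusted p under 0.05, 3, 2, 2, 8 and 2 members were higher and 4, 3, 3, 1 and 0 were lower. The 2 that rose were Cox5a, a subunit on the matrix side of complex IV, in cluster 1 (log2 fold change 0.78, edgeR adjusted p = 0.0184) and Uqcrq in cluster 44 (0.77, edgeR adjusted p = 0.0342), named after their values were seen, and neither was among the 7 of the whole class. Of the cells of cluster 44, 47.0% were called doublets and 34.9% came from 1 library. Its next-best markers were hepatocyte-like. The part of doublets in the Uqcrq rise was not tested. In cluster 11 Ndufa4 fell by 0.69 (edgeR, adjusted p = 0.0314), the only fall in the 5 clusters, beside 2.94%, 1.91%, 3.12%, 6.07% and 2.93% of all genes called lower. The median of the members was -0.09, -0.05, -0.05, 0.21 and 0.14 in these clusters.

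In the other 7 classes edgeR called 0 members in either direction. Monocyte-like cells had 0 of 75 (background 0.69% of all genes, 12 members at an unadjusted p under 0.05) and neutrophil-like cells 0 of 77 (0.364%, 4 members). Dendritic-like cells had 0 of 74 (1.4%, 4 members), pre-B-like cells 0 of 72 (0.472%, 3 members) and NK-like cells 0 of 74 (0.696%, 3 members). T-like cells had 0 of 72 (0.642%, 1 member) and erythroblast-like cells 0 of 73 (0.205%, 10 members). DESeq2 called 1 in erythroblast-like cells (0.583% of all genes) and 0 in the other 6. The median changes ran from -0.07 in pre-B-like cells to 0.14 in NK-like cells. Without anemia mice 2 and 3 they ran from -0.10 in T-like to 0.08 in erythroblast-like cells, with NK-like cells at -0.05. Bnip3 was called higher in 8 classes outside hepatocyte-like cells, at 1.83 in macrophage-like, 1.43 in neutrophil-like and 0.73 in B-like cells.

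The anemia effect on single members differed between classes. In 1 edgeR model over all 12 classes with the mouse as a block, the class by anemia interaction was called for 72 of 77 members, beside 46.9% of all 14327 genes. Without hepatocyte-like cells it was called for 36 of 76, beside 25% of all genes. The smallest adjusted p-values were those of Atp5l (1.44e-13), Uqcrh (4.23e-13) and Ndufa11 (4.98e-13).

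Some alternative isoforms had a high level in a single class, in both groups. Cox6a2, the muscle isoform of subunit 6a, was at 273 CPM in dendritic-like cells, and at no more than 8.35 CPM in the other named classes. Nearly all of it lay in 1 of the 2 clusters of the class. In cluster 19, 2515 of 3543 cells (70.98%) held a UMI, out of 1301 control and 1220 anemic cells with a UMI in the class. In T-like cells, 0.268% of control and 0.195% of anemic cells held a UMI. The gene lies on chromosome 7 from 128205435 to 128206387 (GRCm38). Its group means were 265.8 ± 54.8 and 280.4 ± 61.5 CPM there, a log2 fold change of 0.04 (edgeR, adjusted p = 0.95). Cox6b2, the testis isoform of subunit 6b, was at 109 CPM in erythroblast-like cells and at no more than 9.46 CPM elsewhere, with 118.8 ± 51.7 CPM in controls and 99.8 ± 12.9 CPM in anemia (log2 fold change -0.16, edgeR adjusted p = 0.88). The part of called doublets, 30.1% of the erythroblast-like cells, in this level was not tested. The ordinary Cox6b1 ran from 36.6 CPM in reticulocyte-like to 653 CPM in hepatocyte-like cells. Cox7b2 and Cox8c, with 21 and 3 UMIs in all, were too rare for a test in any class, and Cox8b was not tested in 10 classes, Ndufa4l2 in 9.

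**Figure D4:**
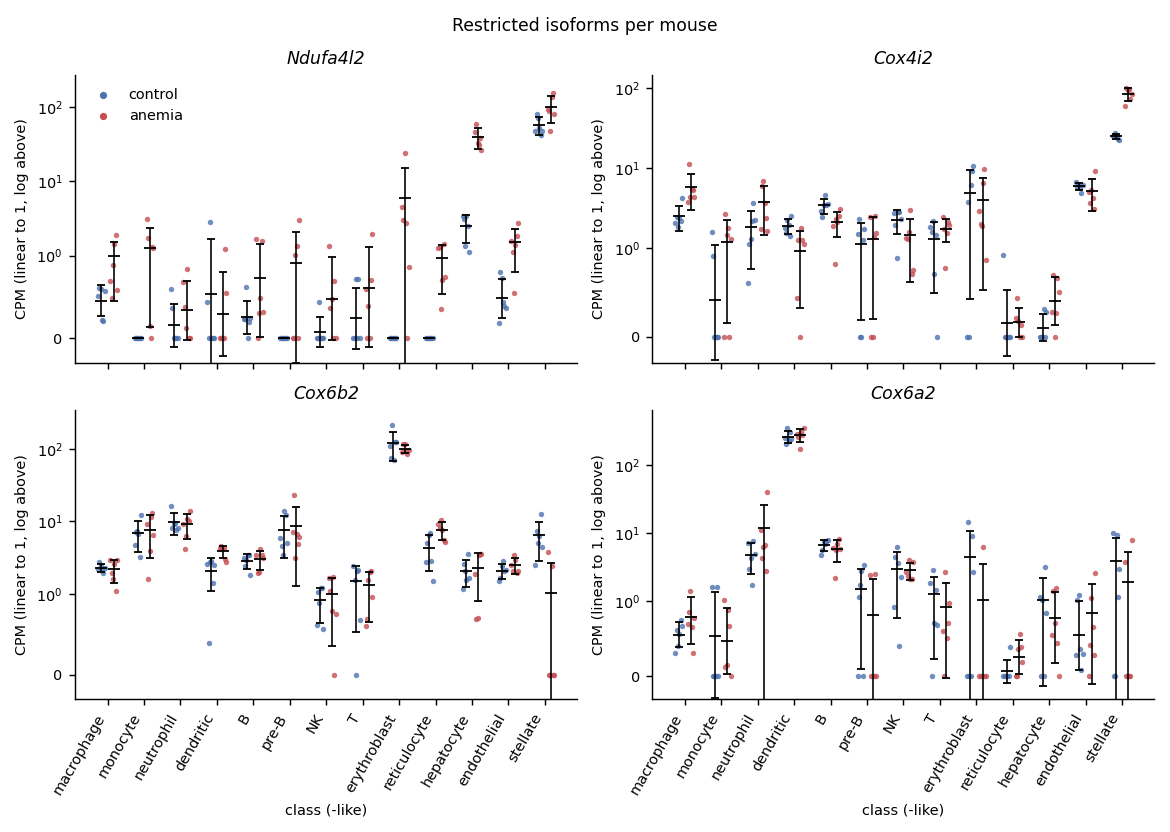
Level of Ndufa4l2, Cox4i2, Cox6b2 and Cox6a2 (CPM, linear up to 1 and on a log scale above, 1 point per mouse, bars for the mean ± SD) by cell class. Ndufa4l2 separates the groups in hepatocyte-like cells and Cox4i2 in stellate-like cells, while Cox6b2 is highest in erythroblast-like cells (109 CPM) and Cox6a2 in dendritic-like cells (273 CPM) in both groups.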

How the data were processed

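The authors deposited raw UMI counts per gene and cell barcode for each of the 12 libraries, without normalization, made with Cell Ranger 7.0.0 per the file headers. The sample labels name the 3′ v2 kit and the series' design text v3.1. Mapping was to mm10, per the submitters' processing notes, and gene positions are from the GENCODE annotation of GRCm38. Cells had 500 to 50000 UMIs and at most 50% mitochondrial UMIs. They were clustered on 2000 variable genes without the members (20 components, 20 neighbours, resolution 2, 73 clusters, igraph 0.11.9 under Python 3.11.15). Doublets were called at 0.8% per 1000 barcodes and kept, and 25 clusters with over 50% doublets stayed unnamed, a limit set after the data had been seen. They held 10.0% of control and 7.15% of anemic cells.

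Counts were summed per mouse and class. edgeR 4.0.16 (R 4.3.3, quasi-likelihood, TMM, Benjamini-Hochberg adjustment at 0.05) tested genes that averaged 5 or more UMIs a mouse, in 12 classes over the 12 mice and in single clusters over the mice with at least 10 cells. Adjusted p-values were taken over all genes tested. The SE given with an edgeR log2 fold change is its absolute value divided by the square root of the F statistic of the test. Mitochondrial and ribosomal protein genes were left out of the fit, and the mitochondrially encoded subunits were tested in a fit that kept them. The scripts were tested on simulated data. There the planned limma 3.58.1 voom model for the interaction called many unchanged genes, so edgeR with the mouse as a block replaced it. DESeq2 1.42.0 and the settings named in the closing part were alternatives. The genes named were the alternative isoforms with their counterparts, up to 3 called members per class and direction with the largest change, up to 5 members called in the most classes, the top member of each complex, up to 5 with the smallest interaction p-value, and name matches that are no subunits. The genes of the other lists were named only where called, up to 3 per list and class. Ndufs1, Ndufs7, Ndufc1, Uqcrfs1, Uqcrc2, Atp5a1 and Atp5g1 were chosen after their values were seen. The members and lists were chosen with earlier results of these data known. Samples were grouped by the treatment label, with the replicate number from the labels' titles.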

Additional observations from a re-analysis of the deposited data

Results flagged for a closer look

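In 100 groups of 6 mice, a single mouse was tested for standing apart from the other 5, and 10 were found. Among independent groups, chance marks about 1 in 20. These groups reuse the same mice, and many of their genes were picked from these data, so the 10 cannot be set against that share. Control mouse 3 stood apart 5 times. It had the highest summed level of the members in macrophage-like cells, 19028 CPM against 15713 to 16816 CPM in the other controls, and in endothelial-like cells, 14386 CPM against 10489 to 11755 CPM. It was also the highest control for Atp5f1 in endothelial-like cells, at 195 CPM against 149 to 162 CPM, and for Ndufb11 in reticulocyte-like cells, at 78.1 CPM against 35.1 to 45.8 CPM. For Cox8a in reticulocyte-like cells it had 97.6 CPM, against 57.7 to 71.5 CPM in the other controls. Its reticulocyte-like class held 165 cells and 153676 UMIs, against 619 to 2378 cells in the other controls. Both reticulocyte-like levels thus rest on few UMIs.

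Among the anemic mice, mouse 2 had the highest Cox4i2 in macrophage-like cells, at 11.1 CPM against 3.78 to 5.49 CPM, and the highest Cox8a in reticulocyte-like cells, at 76.7 CPM against 58.6 to 65.1 CPM. Anemia mouse 1 had 26.0 CPM of Ndufa11 in reticulocyte-like cells, against 19.6 to 21.6 CPM. Control mouse 6 had the highest control level of Cox4i2 in macrophage-like cells, at 4.20 CPM against 1.80 to 2.44 CPM, and the lowest control level of Atp5f1 in hepatocyte-like cells, at 334 CPM against 406 to 442 CPM.

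The anemia effect differed between the 12 classes, by the interaction term of the edgeR model, with the smallest adjusted p-values for Atp5l (1.44e-13), Uqcrh (4.23e-13), Ndufa11 (4.98e-13), Ndufb11 (1.77e-11) and Cox7b (1.97e-11). Their log2 fold changes in hepatocyte-like cells were 0.72, 0.54, 0.83, 0.61 and 0.94. Without hepatocyte-like cells each was still called, with edgeR adjusted p-values of 2.27e-10, 2.43e-11, 3.37e-08, 2.07e-08 and 2.54e-06. Atp5l, Uqcrh, Ndufa11 and Ndufb11 were also called higher in reticulocyte-like cells with TMM scaling.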

How the results depend on the processing

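The count in hepatocyte-like cells held within 1.5 times in every setting over the whole class, with 73 to 74 members called when any single mouse was left out. Settings added after seeing the data lowered it to 46 without cluster 21 and to 23, 8, 0, 21 and 1 within clusters 10, 16, 21, 28 and 37. With cells of at most 10% mitochondrial UMIs the log2 ratios of the summed levels were 0.26, 0.33, 0.26 and 0.28 for complexes I, III, IV and V, and Ndufa4 was at -0.0064. Ndufa4 was at -0.12 without cluster 21 and at -0.070, -0.19, -0.15 and -0.18 within clusters 10, 16, 28 and 37. Cox6b1 was at -0.025 in cluster 37, and Ndufa7 at -0.036 in cluster 21 and -0.20 in cluster 37. Uqcrc2 was at -0.027 without cluster 21 and at -0.14, -0.18, -0.18, -0.032 and -0.093 within clusters 10, 16, 21, 28 and 37. Ndufs1 was at -0.30 and -0.16 in clusters 10 and 37. Atp5a1 was at -0.014 with library totals without TMM factors and at -0.12, -0.037 and -0.068 in clusters 10, 16 and 28. Library totals change only the scaling, the other settings hold fewer cells or other mixtures of clusters, and beyond that the cause was not tested.

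In the other classes the counts were small and moved. DESeq2 called 2 members in macrophage-like, 8 in B-like, 1 in erythroblast-like and 5 in endothelial-like cells, beside 7.31%, 5.84%, 0.583% and 21.5% of all genes. A mean of at least 50 UMIs gave 0 in macrophage-like cells (3.07% of all genes called). Cox4i2, with 138 control and 356 anemic UMIs there, fell under that filter and was not tested. In reticulocyte-like cells the filter gave 13 (41.5%), all 13 of them lower. There, library totals without TMM factors called 21 (17% of all genes) and put Uqcrh at -0.039 and Cox8a at -0.030, and cells with less free RNA called 3 (8.28%). The joint voom model, which called unchanged genes in simulated data, called 4, 2, 6, 12, 23 and 30 in macrophage-like, monocyte-like, B-like, erythroblast-like, reticulocyte-like and endothelial-like cells, beside 7.64%, 1.7%, 7.25%, 5.61%, 6.85% and 29.8% of all genes. The Y-linked level as a covariate left 0 in B-like cells (1.84% of all genes). Leaving out single mice gave 0 to 2 in macrophage-like, 0 to 16 in B-like, 2 to 7 in reticulocyte-like and 2 to 32 in endothelial-like cells, while the share of all genes called ran from 1.19% to 4.83%, 1.01% to 8.94%, 5.77% to 11.7% and 12.8% to 22.7%. Endothelial clusters 4, 5, 27, 31 and 36 gave 8, 10, 0, 17 and 1. Settings added after seeing the data gave 0 in macrophage clusters 2, 18, 20 and 25, 1 in B cluster 0 and 0 in the other 4, and 1, 0, 1, 1 and 0 in reticulocyte clusters 1, 3, 11, 44 and 52, with Atp5f1 at -0.033 in cluster 11. Leaving out anemia mice 2 and 3 together, also added then, gave 0 in B-like and 2 in reticulocyte-like cells (1.19% and 7.38% of all genes). With a denominator without mitochondrial, ribosomal protein and globin genes, the log2 ratios in reticulocyte-like cells were -0.23, -0.19, -0.14 and -0.20 for complexes I, III, IV and V. The interaction was called for 70 to 73 members without single mice and for 36 without hepatocyte-like cells. Apart from the filter that took out Cox4i2, the cause of these moves was not tested.

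Same-numbered mice of the 2 groups were not treated as pairs in the main fits. Their deviations correlated at -0.17 to 0.31, and in each class at most 4 of 6 pairs were over 0.1. At most 3 of 6 mice of a group correlated best with their own number. The pair numbered 4 lay above 0 in every class, from 0.05 in erythroblast-like to 0.31 in endothelial-like cells. Whether the numbers mark pairs cannot be told from these values. With the replicate block the count was 1 in monocyte-like cells and 0 in B-like cells (3.29% and 3.63% of all genes), and it moved no other count by over 1.5 times.

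Depth limited the rare isoforms, and genes under a mean of 5 UMIs per mouse were not tested. The fewest UMIs of a class in a mouse were 153676, in the reticulocyte-like cells of control mouse 3.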

Other observations

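Outside the named classes, 3 unnamed clusters held many UMIs of the hypoxia-linked isoforms. Ndufa4l2 had 1775 UMIs in cluster 24, led by Col1a1, 1097 in cluster 58, led by the smooth muscle genes Acta2, Tagln and Myh11, and 564 in cluster 39. Cox4i2 had 728, 485 and 517 UMIs in the same clusters. Of the cells of clusters 24, 58 and 39, 57.3%, 65.5% and 90.6% were called doublets. Cox6a2 was found in 85.3% of the 95 cells of the unnamed cluster 69, where 98.9% of the cells were called doublets.

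In 4 named classes Ndufa4l2 had 0 UMIs in all control mice and some in anemia, and basophil-like cells had 0 in both groups. Monocyte-like cells held 36 UMIs in anemia, erythroblast-like cells 47 and reticulocyte-like cells 31, from 5, 5 and 6 of 6 anemic mice, and pre-B-like cells 4. Of the 36 monocyte-like UMIs, 29 came from a single anemic mouse. The gene was too low for a test there. The groups differed in cell number, with 1844 control and 7883 anemic monocyte-like cells. Of the 47 erythroblast-like UMIs, most came from anemia mouse 3, at 24.1 CPM.

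Cox8b, the muscle isoform of subunit 8, gave 284 of its UMIs in 15 cells of the neutrophil-like cluster 35, and its level was 92.5 CPM in anemia mouse 6. Ndufb1-ps, left out by the name rule, had a mean of 898 CPM in hepatocyte-like cells, against 267 CPM in endothelial-like and 43.3 CPM in reticulocyte-like cells.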
